A study of Gallus gallus with 6 samples.

Results

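Cytochromes P450 are heme enzymes that insert oxygen into fat-soluble molecules. In the intestine they take apart dietary chemicals and drugs before these reach the liver. Other members of the family shape fatty acids, bile acids, steroid hormones, vitamin D and vitamin A. Most sit in the endoplasmic reticulum and receive electrons from cytochrome P450 oxidoreductase, while a few work in mitochondria with adrenodoxin. Several families are switched on by receptors that sense foreign chemicals, such as the aryl hydrocarbon receptor for family 1 and the chicken xenobiotic receptor NR1I3 for families 2 and 3.

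The family was read from the deposited gene table of mucosa taken from the jejunum of hens, the small bowel segment after the duodenum. Every gene whose symbol is CYP followed by a digit was taken, except the 2 genes CYP51A1 and CYP24A1, which left 42 of 16317 genes. The hens were SUT breeder hens aged 28 weeks. Control hens were kept at 23 °C without heat stress, and heated hens were held at 36 °C for 6 hours. RNA from 12 hens per group was combined in sets of 4 hens, which gave 3 control pools and 3 heat pools with 1 library each. A replicate is therefore a pool of separate hens, and differences between single hens within a pool cannot be seen.

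The libraries held between 11513427 and 13805395 estimated counts. Pairs of heat pools differed more from each other than pairs of control pools did, with a chi-square per degree of freedom over genes of 38.8 to 65.7 against 22.2 to 23.7. The 14 enterocyte markers, which are genes of the absorptive cells and were all detected, summed to between 21663 and 31301 CPM (counts scaled to library size) in control pools. In heat pools they summed to 25687, 18494 and 31837 CPM, lowest in heat pool 2. Of these 14, 0 passed in edgeR. DESeq2 called 2 higher and 0 lower, against 2.86% and 2.38% of all genes. The 10 hepatocyte markers summed to 87.2 to 93.4 CPM in control pools and to 85.7, 89.1 and 139 CPM in heat pools 1, 2 and 3. Of these AHSG was listed at 0 in every pool and ALB was at 0.40 to 0.71 FPKM (fragments scaled to transcript length and library size), whereas F2 was at 13.3 to 19.2 FPKM and TF at 10.4 to 16.6 FPKM. FGB, a fibrinogen chain, was at 8.73, 6.87 and 6.69 FPKM in control pools and 12.0, 9.45 and 22.6 FPKM in heat pools (edgeR adjusted p = 0.157 and DESeq2 adjusted p = 0.0224). Of the 6 tested hepatocyte markers, 1 was higher and 1 lower at an unadjusted edgeR p under 0.05. The shares over all tested genes were 8.87% and 9.02%. In CPM, 2 of the 6 had all heat pools above all control pools and 1 had all below. Over all tested genes these shares were 11.6% and 12.9%. The 5 genes of the erythroid list in the table summed to 23.2 to 24.6 CPM in control pools and 14.0 to 18.7 CPM in heat pools. Of the 3 tested, 0 passed the threshold in edgeR and 1 was lower in DESeq2, against 2.38% of all genes. The 10 smooth muscle markers summed to 1055, 844 and 1414 CPM in control pools and 838, 1667 and 1727 CPM in heat pools. The 12 fibroblast markers summed to 1621, 2146 and 2279 CPM in control pools and 1835, 2774 and 1430 CPM in heat pools. Of both lists 0 passed in edgeR or DESeq2, where 2.86% of all genes were called higher and 2.38% lower in DESeq2. The part of these markers in the results was not tested. In such tissue samples, fewer cells of a type and less RNA per cell cannot be told apart.

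The hen jejunum carried a broad set of P450 messages. With a control mean of at least 1 FPKM as the bound, 25 of the 42 genes were expressed and 17 were not. Of these, 9 were at 100 FPKM or more and held 77.3% of the summed FPKM of the family in control pools. A further 8 genes lay between 10 and 100 FPKM and 8 between 1 and 10 FPKM. For scale, the median tested gene of the table was at 10.6 FPKM. The summed counts of the family made up 0.332%, 0.309% and 0.306% of all counts in control pools 1, 2 and 3. In heat pools 1, 2 and 3 they made up 0.44%, 0.344% and 0.418%, above every control pool. CYP2C23a and CYP2C23b, neighbours that share reads, supplied 10123, 10076 and 9355 of these counts in control pools. In heat pools they supplied 17438, 13062 and 14534. Without CYP2C23a and CYP2C23b the share of heat pool 2 would lie below that of control pool 1.

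**Figure D1:**
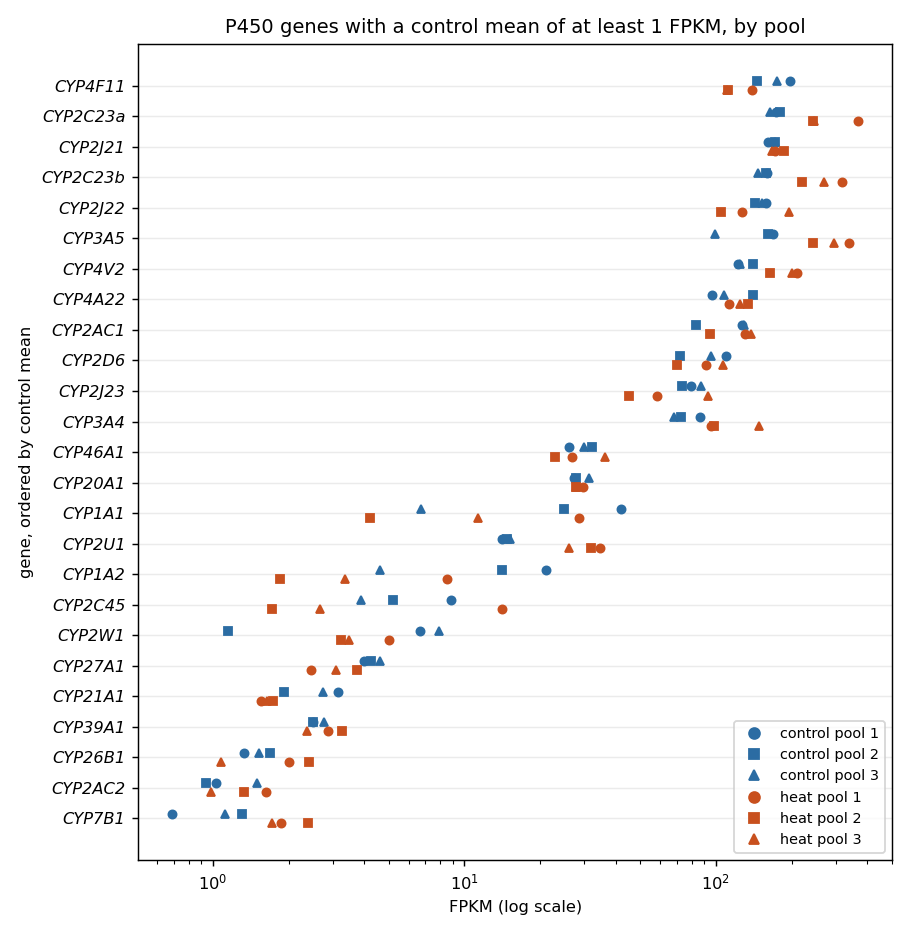
FPKM on a log axis of the 25 P450 genes with a control mean of at least 1 FPKM, 1 point per pool, control pools in blue and heat pools in orange. CYP4F11, CYP2C23a and CYP2J21 head the order, and the points of CYP1A1, CYP1A2, CYP2C45 and CYP2W1 are spread widest.

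In control pools the highest mean was that of CYP4F11 at 172 ± 25.9 FPKM (SD, n = 3 pools), followed by CYP2C23a at 172 ± 7.76 FPKM. CYP2J21 stood at 169 ± 6.22, CYP2C23b at 155 ± 6.90 and CYP2J22 at 151 ± 7.34 FPKM. These 5 means lie within the pool to pool SD of CYP4F11, so the place of CYP4F11 among them is not resolved. Below them came CYP3A5 (143 ± 38.0 FPKM), CYP4V2 (129 ± 9.66), CYP4A22 (115 ± 23.1) and CYP2AC1 (113 ± 25.7). CYP2D6 was at 92.5 ± 19.1, CYP2J23 at 80.1 ± 6.71 and CYP3A4 at 75.7 ± 9.76 FPKM.

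The genes under 1 FPKM included enzymes best known from the liver and from endocrine organs. CYP7A1, which starts bile acid synthesis from cholesterol, was listed at 0 in all 6 pools. CYP17A1, an enzyme of androgen synthesis, and CYP11A1, which starts steroid hormone synthesis, were at control means of 0.0733 and 0.423 FPKM. The 4 CYP2AB genes were at control means between 0.0433 and 0.12 FPKM. CYP26A1 and CYP26C1, which break down retinoic acid, were at 0.577 and 0.09 FPKM, whereas CYP26B1 of the same CYP26 family was at 1.51 FPKM. None of the 13 genes with too few counts to be tested exceeded 1.01 FPKM or 20 counts in any pool.

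Some genes lying side by side were expressed at unlike levels, and others were not. In the reference gene table of another chicken assembly (GRCg7b), 22 of the 42 genes have a P450 gene as a direct neighbour. CYP4A22 was at 115 FPKM in control pools and its neighbour CYP4B7 at 0.147 FPKM. CYP2AC1 was at 113 FPKM and its neighbour CYP2AC2 at 1.16 FPKM. CYP2W1 was at 5.23 FPKM and its neighbour CYP2W2 at 0.06 FPKM. The pairs CYP2C23a and CYP2C23b, CYP3A5 and CYP3A4, and CYP1A1 and CYP1A2 were expressed on both sides.

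Some of these copies share reads. Counts of 8 members were not whole numbers in at least 1 library, and the missing fractions add up between neighbours. CYP2C23a and CYP2C23b together gave whole counts in every library, and so did CYP2J21, CYP2J22 and CYP2J23, within a tolerance of 0.021. CYP1A1 and CYP1A2 were split in 1 library only and also added up to whole counts. CYP2C45 was completed by its neighbour RP11-400G3.5. The split of reads within these sets is therefore an estimate, and the values of their single members are less certain than their sums.

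The design asked which genes differ after acute heat. Of the 42 members, 29 had enough counts to be tested. CYP2U1 rose, and it alone among them passed. The threshold was 0.05 for p-values from the quasi-likelihood test of edgeR, adjusted over all 13060 tested genes. In that test 0.023% of all tested genes were called higher and 0% lower. At an unadjusted p under 0.05, 7 members (24.1%) were higher and 3 (10.3%) lower, against 8.87% higher and 9.02% lower among all tested genes. DESeq2 called 7 of the 26 members with an adjusted p higher (26.9%, against 2.86% of all genes) and 0 lower (against 2.38%). Limma-trend on log2(FPKM + 1) called 0 members in either direction, and 0.0153% of all genes higher and 0% lower.

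All heat pools lay above all control pools in 7 of 29 tested members (24.1%), against 11.6% of all tested genes. These were CYP2U1, CYP2C23a, CYP2C23b, CYP3A5, CYP3A4, CYP4V2 and CYP7B1, and they are the same 7 that DESeq2 called. CYP2C23a and CYP2C23b among them share reads and are not separate observations. In CYP4F11, CYP21A1 and CYP27A1 all heat pools lay below all control pools, 3 of 29 (10.3%) against 12.9% of all tested genes. The median log2 fold change of the 29 members was 0.054, beside -0.0027 for all tested genes. A positive fitted change was found for 18 and a negative one for 11.

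**Figure D2:**
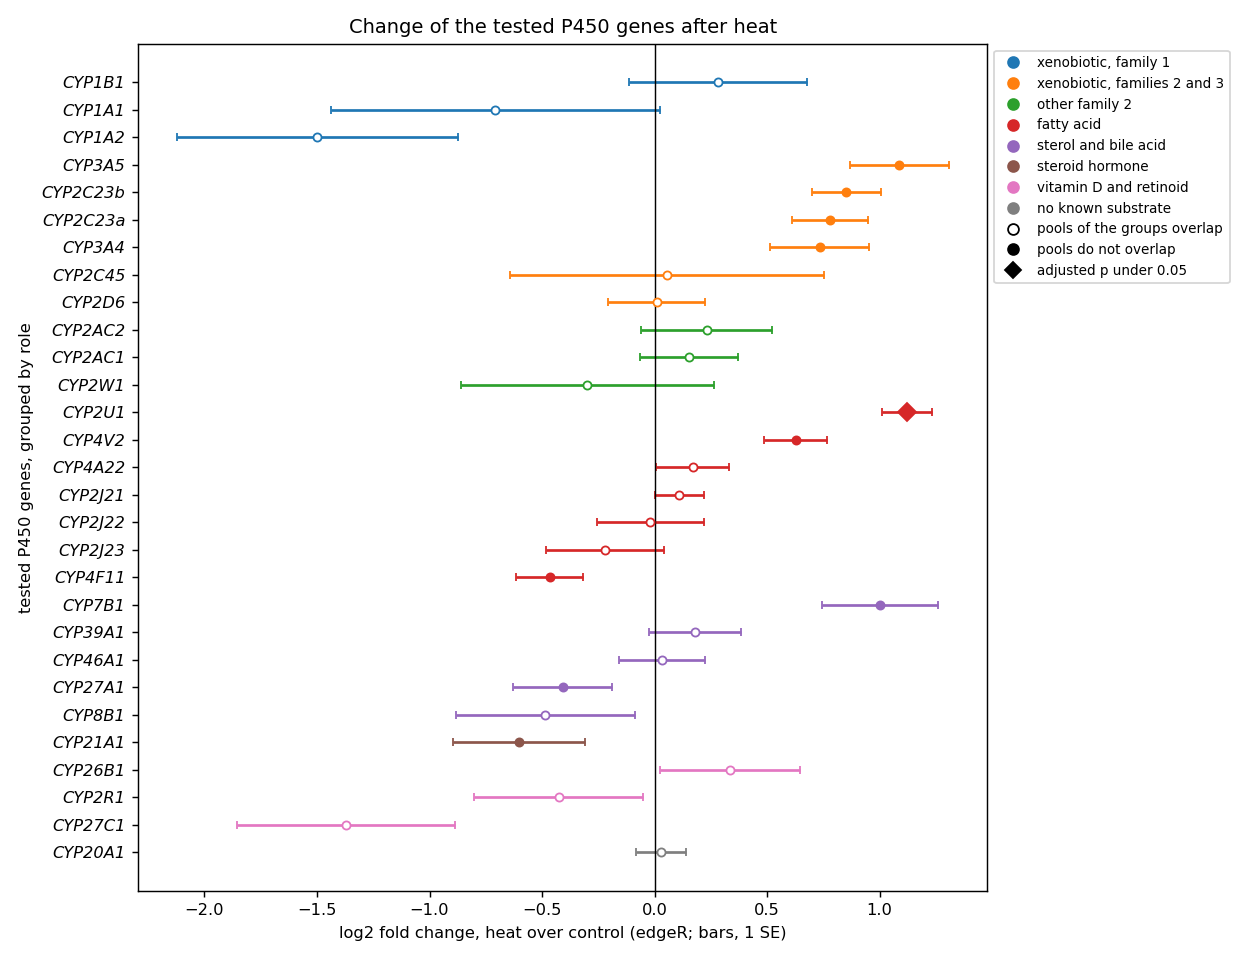
Log2 fold change, heat over control, of the 29 tested P450 genes with 1 SE, grouped and coloured by role; filled points have heat and control pools that do not overlap. CYP2U1 (diamond, 1.12) is the only member past the adjusted p of 0.05, and 4 of the 6 genes of the xenobiotic group of families 2 and 3 lie between 0.73 and 1.09.

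Among 7 tested fatty acid enzymes, CYP2U1 and CYP4V2 had all heat pools above the control pools and CYP4F11 had all below, against 11.6% and 12.9% of all tested genes. Their summed FPKM, with that of CYP4B7, was 829, 830 and 836 in control pools and 855, 778 and 916 in heat pools. CYP2U1, which in humans hydroxylates the tail of long-chain fatty acids, was at 14.1, 14.8 and 15.2 FPKM in control pools 1, 2 and 3. It was at 34.8, 31.8 and 26.0 FPKM in heat pools 1, 2 and 3. The control pools were nearly equal, and the lowest heat pool lay well above them. On the log2 scale it rose by 1.12 (SE 0.11), or 2.18-fold, with an edgeR adjusted p of 0.0348. The call was lost without any one of 5 pools: the edgeR adjusted p was 0.238, 0.247 and 0.256 without control pools 1, 2 and 3. It became 0.0936 and 0.0633 when heat pools 1 and 2 were left out, and stayed past the threshold at 0.0361 when heat pool 3 was. The log2 fold change itself stayed between 1.07 and 1.20 in these fits.

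CYP4V2, a fatty acid hydroxylase of the human eye and other tissues, was at 122, 140 and 125 FPKM in control pools. In heat pools it was at 210, 164 and 201 FPKM. Heat pool 2 was the lowest heat pool and still above every control pool. The fitted log2 change was 0.63 (SE 0.14), with an adjusted p of 0.107 in edgeR and 0.00163 in DESeq2.

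CYP4F11, in humans a hydroxylase of long-chain fatty acids and vitamin K, was at 197, 145 and 176 FPKM in control pools. In heat pools it was at 139, 112 and 110 FPKM. The highest heat pool came close to control pool 2 but did not reach it. CYP4F11 had a log2 fold change of -0.47 (SE 0.15), with an adjusted p of 0.175 in edgeR and 0.0850 in DESeq2. It held 10.1% of the summed FPKM of the family in control pools and 5.67% in heat pools. That sum was itself higher in heat pools, at 1830 to 2326 FPKM against 1643 to 1804 FPKM in control pools. Without CYP2C23a and CYP2C23b, heat pool 2 would lie below control pool 1 in that sum too.

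CYP4A22, also of a subfamily of fatty acid hydroxylases, was at 96.9, 141 and 107 FPKM in control pools and 113, 134 and 125 FPKM in heat pools. The groups overlapped, with a log2 fold change of 0.17 (SE 0.16) and an edgeR adjusted p of 0.626.

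The 3 neighbouring CYP2J genes, whose human relative makes epoxides from arachidonic acid, were all abundant and had overlapping groups. CYP2J21 was at 162, 172 and 173 FPKM in control pools and 172, 186 and 166 FPKM in heat pools. CYP2J22 was at 158, 143 and 153 FPKM in control pools and 127, 105 and 195 FPKM in heat pools. CYP2J23 was at 79.9, 73.5 and 86.9 FPKM in control pools and 58.5, 45.2 and 92.9 FPKM in heat pools. Reads were split among these 3 genes in every library, so that differences between them depend on that split. CYP2J21 was steady across all pools, whereas CYP2J22 and CYP2J23 were both lowest in heat pool 2 and highest in heat pool 3. Their highest heat pool was 1.85 and 2.05 times their lowest, against 1.12 times for CYP2J21. The enterocyte markers had the same order of heat pools but not of control pools. Their sum was lowest in control pool 3, whereas CYP2J22 and CYP2J23 were lowest in control pool 2. The part of these markers in this spread was not tested. Added up as 1 feature, the 3 genes had a log2 fold change of -0.014 (SE 0.18) and an edgeR adjusted p of 0.979.

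In the xenobiotic group of families 2 and 3, 4 of 6 genes had all heat pools above all control pools, against 11.6% of all tested genes, although none passed in edgeR. CYP2C23a and CYP2C23b, counted among these 4, share reads. The group was set by role and leaves out other genes of family 2. Of those tested, CYP2U1 had all heat pools above all control pools. In CYP2J21, CYP2J22, CYP2J23, CYP2AC1, CYP2AC2, CYP2W1 and CYP2R1 the pools overlapped. The summed FPKM of the 6 genes was 707, 648 and 578 in control pools and 1225, 878 and 1068 in heat pools. CYP2C23a, known in the older literature as CYP2H1 and inducible by phenobarbital in chicken liver, was at 173, 180 and 164 FPKM in control pools. It was at 368, 244 and 246 FPKM in heat pools 1, 2 and 3. Heat pool 1 stood well above the other heat pools, which were close to each other. Its fold change was 0.78 on the log2 scale (SE 0.17), with an adjusted p of 0.101 in edgeR and 0.000481 in DESeq2.

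CYP2C23b, formerly CYP2H2, was at 160, 158 and 147 FPKM in control pools and 317, 220 and 270 FPKM in heat pools. Its control pools varied little, and heat pool 1 was again the highest. For CYP2C23b the log2 fold change was 0.85 (SE 0.15), with an adjusted p of 0.0773 in edgeR and 2.38e-05 in DESeq2. Because the reads of both CYP2C23 genes were split, their counts were also added up, a step chosen after the data were seen. The sums were 10123, 10076 and 9355 counts in control pools and 17438, 13062 and 14534 counts in heat pools. Their sum had a log2 fold change of 0.81 (SE 0.17) and its edgeR adjusted p was 0.0927.

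CYP3A5, also listed as CYP3A37, belongs to the subfamily that clears many drugs and steroids in the gut. It was at 169, 161 and 99.4 FPKM in control pools and 338, 244 and 295 FPKM in heat pools. Control pool 3 was the lowest of all, and every heat pool lay above every control pool. CYP3A5 had a log2 fold change of 1.09 (SE 0.22), with an adjusted p of 0.0897 in edgeR and 0.000193 in DESeq2. CYP3A5 held 8.37% of the summed FPKM of the family in control pools and 13.8% in heat pools. CYP2C23a and CYP2C23b held 13.5% and 12.7% in heat pools. The heat means were 292 ± 47.3, 286 ± 71.1 and 269 ± 48.6 FPKM for CYP3A5, CYP2C23a and CYP2C23b. They lie within the pool to pool SD, so the order of these 3 is not resolved.

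CYP3A4, its neighbour, also listed as CYP3A80, was at 86.7, 72.4 and 68.1 FPKM in control pools and 96.0, 98.0 and 148 FPKM in heat pools. Heat pool 3 was the highest, while heat pools 1 and 2 lay just above control pool 1. For CYP3A4 it was 0.73 (SE 0.22), with an adjusted p of 0.161 in edgeR and 0.0364 in DESeq2. With heat pool 3 left out it had a log2 fold change of 0.46 (edgeR adjusted p = 0.136).

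CYP2D6 and CYP2C45 of the same group had overlapping groups. CYP2D6, in humans a drug-clearing enzyme, was at 110, 72.1 and 95.4 FPKM in control pools and 91.1, 70.3 and 106 FPKM in heat pools. Its log2 fold change was 0.01 (SE 0.22, edgeR adjusted p = 0.987). CYP2C45 was at 8.84, 5.22 and 3.88 FPKM in control pools and 14.1, 1.71 and 2.67 FPKM in heat pools. Heat pool 1 was the highest of all pools and heat pool 2 the lowest, and the log2 fold change of 0.05 (SE 0.70) was -1.34 without heat pool 1.

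**Figure D3:**
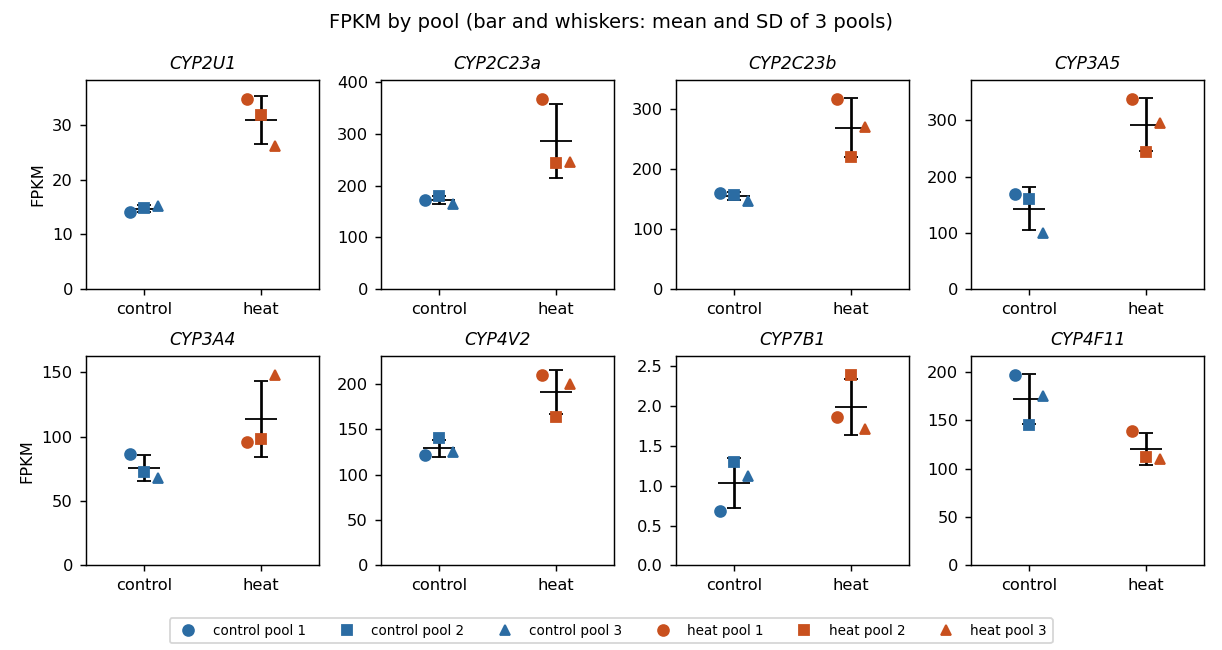
FPKM in each pool for CYP2U1, CYP2C23a, CYP2C23b, CYP3A5, CYP3A4, CYP4V2, CYP7B1 and CYP4F11, with the mean and SD of 3 pools per group. In the first 7 genes all heat pools lie above all control pools, and in CYP4F11 all lie below.

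Family 1, the genes served by the aryl hydrocarbon receptor, varied widely between pools of the same group. CYP1A1, also listed as CYP1A4, oxidises planar aromatic compounds and was at 41.9, 25.0 and 6.69 FPKM in control pools. It was at 28.6, 4.22 and 11.3 FPKM in heat pools. The highest control pool was 6.27 times the lowest, and the highest heat pool 6.78 times the lowest. CYP1A1 had a log2 fold change of -0.71 (SE 0.73, edgeR adjusted p = 0.652). That value became -0.06 when control pool 1 was left out and -1.54 when heat pool 1 was.

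CYP1A2, its neighbour, also listed as CYP1A5, was at 21.1, 14.2 and 4.60 FPKM in control pools and 8.49, 1.85 and 3.34 FPKM in heat pools. It followed the same order of pools as CYP1A1 within each group. CYP1A2 had a log2 fold change of -1.50 (SE 0.63, unadjusted p = 0.0432 and edgeR adjusted p = 0.263), and the groups overlapped. That value became -0.98 when control pool 1 was left out and -2.22 when heat pool 1 was. CYP1A1 and CYP1A2 added up had a log2 fold change of -0.92 (SE 0.70, edgeR adjusted p = 0.530). CYP1B1 was at 0.807 ± 0.262 FPKM in control pools and 0.94 ± 0.442 FPKM in heat pools. CYP1C1 was at 1.01, 0.36 and 0.15 FPKM in control pools and 0.18, 0.22 and 0.43 FPKM in heat pools, with 3 to 20 counts per pool.

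Most expressed P450 genes varied less than this. Of 23 tested members with at least 1 FPKM in each control pool, 4 differed more than 2-fold between the highest and lowest control pool. These 4 were CYP1A1, CYP1A2, CYP2C45 and CYP2W1, and 4.27% of the 11318 tested genes under the same rule exceeded 2-fold. The median ratio was 1.26 over those members and 1.21 over those genes. CYP2W1 was at 6.64, 1.15 and 7.89 FPKM in control pools and 5.03, 3.24 and 3.47 FPKM in heat pools, so that control pool 2 was the lowest of all 6. RP11-400G3.5, which shares reads with CYP2C45, was at 54.9, 30.8 and 21.4 FPKM in control pools and 55.8, 7.38 and 19.3 FPKM in heat pools. It had the same order of pools as CYP2C45 within both groups. AHRR and TIPARP, also known to be induced through the aryl hydrocarbon receptor, were at 2.09 to 2.61 and 36.9 to 38.9 FPKM in control pools. In heat pools they were at 1.67 to 2.79 and 28.7 to 48.3 FPKM. CYP1B1 and CYP1C1 of family 1, both under 1 FPKM in the control mean, differed 1.98-fold and 6.73-fold between control pools. The part of the receptor in the spread between pools was not tested.

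**Figure D4:**
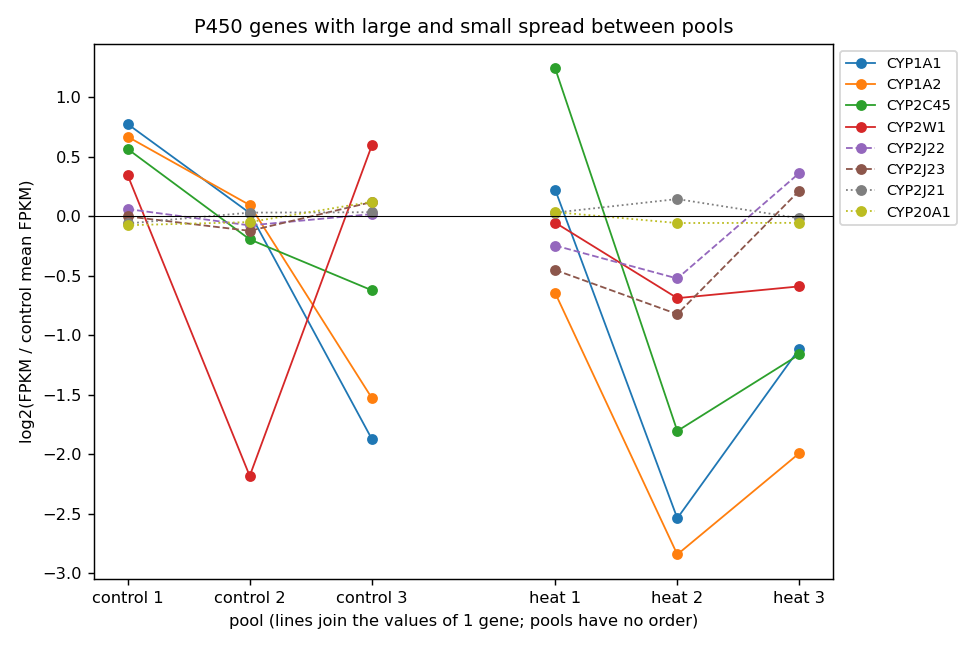
Log2 of FPKM over the control mean in each of the 6 pools for 8 P450 genes; lines join the values of 1 gene and pools have no order. CYP1A1, CYP1A2, CYP2C45 and CYP2W1 move by more than 2-fold between control pools, while CYP2J21 and CYP20A1 stay near 0 in all pools.

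Within a library, the balance between neighbouring copies was also compared, for 5 ratios chosen after the data were seen. The FPKM ratio of CYP1A1 to CYP1A2 was 1.99, 1.76 and 1.45 in control pools and 3.37, 2.28 and 3.40 in heat pools. All heat pools lay above all control pools in this ratio, although neither gene separated the groups alone. The exact permutation test (two-sided) gave p = 0.1, the smallest value that 3 against 3 pools can give, and 0.25 adjusted over the 5 ratios. The ratio of CYP2J22 to CYP2J23 was 1.97, 1.95 and 1.76 in control pools and 2.18, 2.33 and 2.09 in heat pools, with the same exact p of 0.1. CYP3A5 to CYP3A4 was 1.95, 2.22 and 1.46 in control pools and 3.53, 2.49 and 2.0 in heat pools, with overlapping groups and an exact permutation p of 0.2. The ratios of CYP2C23a to CYP2C23b and of CYP2J21 to CYP2J22 overlapped too, with exact permutation p of 0.8 and 0.6. Reads were split among the copies of CYP2C23 and of CYP2J in every library, and those ratios depend on that split. Between CYP1A1 and CYP1A2 they were split in heat pool 1 only, so that the ratio of that pool depends on it.

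Among 5 tested sterol and bile acid enzymes, 1 (CYP7B1) had all heat pools above the control pools and 1 (CYP27A1) had all below. The shares over all tested genes were 11.6% and 12.9%. CYP7B1, which hydroxylates oxysterols, was at 0.69, 1.30 and 1.12 FPKM in control pools and 1.87, 2.39 and 1.71 FPKM in heat pools. Its level was low, with 59 to 190 counts per pool, and the groups did not overlap. CYP7B1 had a log2 fold change of 1.0 (SE 0.26), with an adjusted p of 0.130 in edgeR and 0.0141 in DESeq2. CYP27A1, the mitochondrial sterol hydroxylase, was at 3.97, 4.25 and 4.63 FPKM in control pools and 2.45, 3.73 and 3.08 FPKM in heat pools. For CYP27A1 the log2 fold change was -0.41 (SE 0.22, edgeR adjusted p = 0.371).

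CYP46A1, which hydroxylates cholesterol and is best known from mammalian neurons, was at 26.1, 32.2 and 29.9 FPKM in control pools. In heat pools it was at 26.8, 22.9 and 36.2 FPKM, on both sides of the control pools. CYP39A1, another oxysterol hydroxylase, was at 2.59 ± 0.153 and 2.83 ± 0.442 FPKM in control and heat pools. CYP8B1, which sets the type of bile acid made, was at 0.793 ± 0.085 and 0.573 ± 0.327 FPKM. The edgeR adjusted p of these 3 genes was 0.952, 0.688 and 0.558.

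CYP21A1, which makes precursors of corticosteroids in the adrenal gland, was detected at a low level. It was at 3.15, 1.91 and 2.74 FPKM in control pools and 1.55, 1.74 and 1.64 FPKM in heat pools, with 20 to 49 counts per pool. Heat pools were close to each other and just below control pool 2. CYP21A1 had a log2 fold change of -0.60 (SE 0.29, edgeR adjusted p = 0.323).

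The tested genes of vitamin D and vitamin A did not pass. CYP26B1 was at 1.33, 1.68 and 1.53 FPKM in control pools and 2.0, 2.40 and 1.08 FPKM in heat pools (edgeR adjusted p = 0.612). CYP2R1, which hydroxylates vitamin D, was at 0.623 ± 0.168 and 0.45 ± 0.155 FPKM in control and heat pools. CYP27C1, a retinoid desaturase of human skin, was at 0.19, 0.36 and 0.43 FPKM in control pools and 0.19, 0.06 and 0.11 FPKM in heat pools. Its log2 fold change of -1.37 (SE 0.48) rests on 4 to 29 counts per pool, with an unadjusted p of 0.0220 and an edgeR adjusted p of 0.204.

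The remaining tested members differed little. CYP20A1, whose substrate is not known, was steady, at 27.4, 27.9 and 31.4 FPKM in control pools and 29.6, 27.7 and 27.8 FPKM in heat pools. CYP2AC1 was at 127, 83.7 and 130 FPKM in control pools and 131, 95.0 and 138 FPKM in heat pools, with pool 2 the lowest in both groups. CYP2AC2 was at 1.16 ± 0.301 and 1.31 ± 0.320 FPKM. The edgeR adjusted p of these 3 genes was 0.919, 0.758 and 0.720.

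Genes that serve or steer P450 enzymes were read from 8 lists with 166 different tested genes. None of them passed in edgeR, with 15 higher (9.04%) and 20 lower (12.0%) at an unadjusted p under 0.05, against 8.87% and 9.02% of all tested genes. DESeq2 called 8 higher and 8 lower (4.94% each of the 162 with an adjusted p), against 2.86% and 2.38% of all genes, and limma-trend on log2(FPKM + 1) called 0. Their median log2 fold change was -0.021.

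No electron donor passed. POR, the oxidoreductase that serves microsomal P450 enzymes, was at 70.8, 69.6 and 50.2 FPKM in control pools and 50.9, 46.0 and 61.2 FPKM in heat pools. POR had a log2 fold change of -0.20 (SE 0.18, edgeR adjusted p = 0.594). CYB5A, cytochrome b5, was at a log2 fold change of 0.20 (SE 0.14), and the mitochondrial donors FDX1 and FDXR were at -0.15 (SE 0.10) and 0.10 (SE 0.14). The list of electron transfer partners also holds genes that are not electron donors, such as the heme oxygenases HMOX1 and HMOX2. Of its 12 tested genes, 0 passed in edgeR, DESeq2 or limma-trend, and 0 had an unadjusted edgeR p under 0.05. Over all genes the shares were 8.87% higher and 9.02% lower at an unadjusted p under 0.05, and 2.86% and 2.38% in DESeq2. In CPM, all heat pools lay above all control pools for CYB5A and below them for FDX1, against 11.6% and 12.9% of all tested genes. FDX1 separated by a small margin, with 64.0 CPM in heat pool 2 and 64.7 CPM in control pool 1. In FPKM CYB5A overlapped, at 728 in heat pool 2 and 753 in control pool 2. The 3 genes of this list with the smallest p were HMOX1 (0.45, SE 0.23), PGRMC1 (0.40, SE 0.20) and CYB5R4 (-0.35, SE 0.18).

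Among 11 tested genes of heme synthesis and transport, 0 passed in edgeR. At an unadjusted p under 0.05, 1 was higher (9.09%, against 8.87% of all genes) and 2 lower (18.2%, against 9.02%). DESeq2 called 0 higher (against 2.86% of all genes) and 1 lower (9.09%, against 2.38%). That one was ABCB6, a porphyrin transporter, which went from 27.9 ± 0.687 to 18.3 ± 3.65 CPM (log2 fold change -0.61, SE 0.16, edgeR adjusted p = 0.133 and DESeq2 adjusted p = 0.0478). ALAD, an early enzyme of the pathway, was at -0.68 (SE 0.25) and the transporter ABCB10 at 0.29 (SE 0.12). ALAS1, which starts heme synthesis and in chicken liver is induced together with CYP2H1 by phenobarbital, was at 71.4, 60.4 and 59.1 FPKM in control pools. It was at 58.1, 60.0 and 61.7 FPKM in heat pools, within the control range apart from heat pool 1 just below it.

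Of 30 tested regulators, 0 passed in edgeR. At an unadjusted p under 0.05, 3 were higher (10%) and 2 lower (6.67%), near the 8.87% and 9.02% of all genes. DESeq2 called 3 higher (10%, against 2.86% of all genes) and 0 lower (against 2.38%). NR0B2, a repressor of bile acid synthesis, went from 101 ± 10.4 to 191 ± 35.6 CPM (0.92, SE 0.16, edgeR adjusted p = 0.0773 and DESeq2 adjusted p = 5.70e-05). PPARA, a fatty acid receptor that controls family 4 genes in mammals, was at a log2 fold change of 1.01 (SE 0.18, edgeR adjusted p = 0.0773 and DESeq2 adjusted p = 0.000163). PPARD, a related fatty acid receptor, was at -0.53 (SE 0.14, edgeR adjusted p = 0.140), and its DESeq2 adjusted p was 0.0584. RXRA, the partner of many of these receptors, was at 0.62 (SE 0.18, edgeR adjusted p = 0.146 and DESeq2 adjusted p = 0.0435). The sensors of foreign chemicals NR1I3 and AHR did not pass in either tool. NR1I3 was at 27.3, 26.8 and 28.9 FPKM in control pools and 27.7, 28.0 and 24.4 FPKM in heat pools. AHR, ARNT, HNF4A and NR3C1 were at log2 fold changes of 0.15 (SE 0.16), 0.25 (SE 0.13), -0.31 (SE 0.14) and 0.21 (SE 0.17). In CPM, all heat pools lay above all control pools in 6 of the 30 and below them in 3, against 11.6% and 12.9% of all tested genes. The 6 were NR0B2, PPARA, RXRA, CEBPA, KEAP1 and ARNT. ARNT, CEBPA and KEAP1 separated by a small margin. ARNT was at 65.6 CPM in heat pool 3 and 65.4 CPM in control pool 2. CEBPA was at 7.18 CPM in heat pool 3 and 7.10 CPM in control pool 2. KEAP1 was at 13.5 CPM in heat pool 1 and 13.3 CPM in control pool 3. In FPKM the groups overlapped for ARNT and CEBPA. The 3 were PPARD, HNF4A and VDR, the vitamin D receptor (-0.38, SE 0.13, edgeR adjusted p = 0.203).

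**Figure D5:**
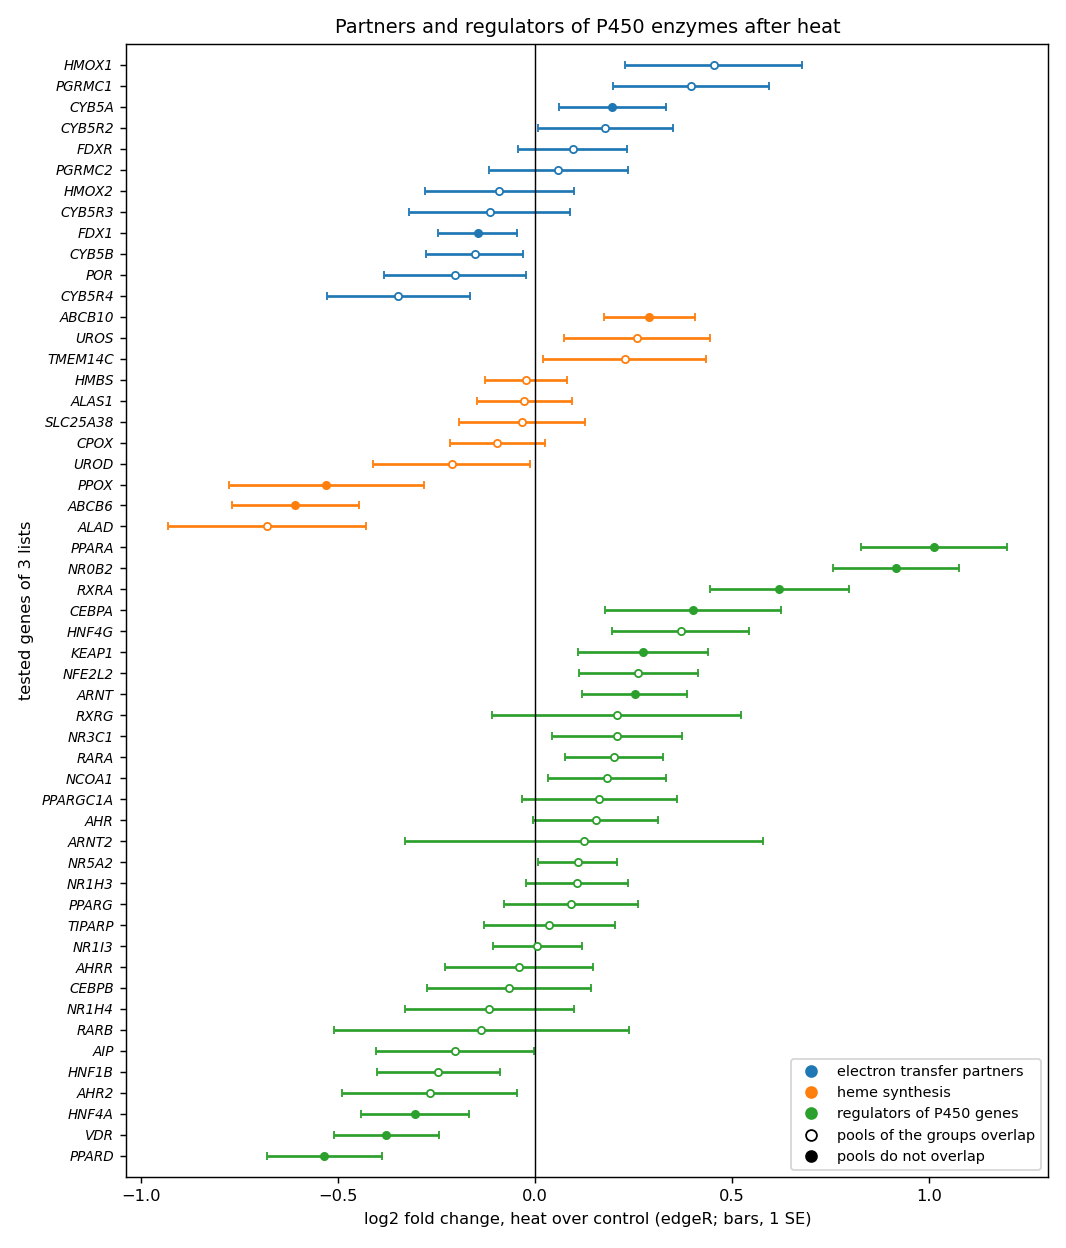
Log2 fold change, heat over control, with 1 SE, of the tested electron transfer partners, heme genes and regulators; filled points have heat and control pools that do not overlap in CPM. PPARA (1.01) and NR0B2 (0.92) lie farthest to the right, POR at -0.20 and NR1I3 at 0.01.

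Of 39 tested conjugating and related enzymes, 0 passed in edgeR. At an unadjusted p under 0.05, 3 were higher (7.69%) and 5 lower (12.8%), and DESeq2 called 1 higher (2.78%) and 2 lower (5.56%). The shares called higher are near those of all genes, which were 8.87% without adjustment and 2.86% in DESeq2. The shares called lower are above those of all genes (9.02% and 2.38%), but rest on 5 and 2 genes. FMO5, a flavin oxygenase, went from 0.718 ± 0.257 to 4.06 ± 1.53 CPM (2.49, SE 0.41, edgeR adjusted p = 0.0773). SULT1B1, a sulfotransferase, went from 21.3 ± 0.625 to 14.0 ± 0.695 CPM (-0.61, SE 0.13). EPHX2, which opens the fatty acid epoxides that CYP2J and CYP2C enzymes make, went from 80.4 ± 5.48 to 47.2 ± 10.1 CPM (-0.77, SE 0.17). The 3 adjusted p-values in DESeq2 were 0.000111 for FMO5, 0.0144 for SULT1B1 and 0.00503 for EPHX2.

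For the lists that follow, the shares over all genes were again 8.87% higher and 9.02% lower at an unadjusted p under 0.05, and 2.86% and 2.38% in DESeq2. Of 14 tested transporters, which include exporters of the ABCC family and uptake carriers, 0 passed in edgeR or DESeq2, with 2 higher (14.3%) and 1 lower (7.14%) at an unadjusted p under 0.05. SLC22A5, a carnitine uptake carrier, was at 0.42 (SE 0.13), ABCC2 at 0.51 (SE 0.18) and ABCC6 at -0.55 (SE 0.17). Of 19 eicosanoid and fatty acid genes, 0 passed in edgeR, 1 was higher (5.26%) and 3 lower (15.8%) at an unadjusted p under 0.05, and DESeq2 called 1 in each direction (5.26%). HPGD, which inactivates prostaglandins, was at 0.65 (SE 0.15), PTGES2 at -0.39 (SE 0.10) and PLA2G4F at -0.51 (SE 0.13). Of 20 genes of retinoid handling, 0 passed in edgeR, 3 were higher and 3 lower at an unadjusted p under 0.05 (15% each), and DESeq2 called 3 higher (15.8%) and 2 lower (10.5%). DHRS3, which returns retinal to retinol, was at 0.93 (SE 0.18), ISX, an intestinal repressor of carotenoid uptake, at 0.51 (SE 0.10) and RDH12 at -0.85 (SE 0.18). Of 23 partners in steroid and bile acid metabolism, 0 passed in edgeR, 2 were higher (8.7%) and 4 lower (17.4%) at an unadjusted p under 0.05, and DESeq2 called 0 higher and 2 lower (8.7%). HSD17B7 was at -1.17 (SE 0.28), the bile acid transporter SLC10A2 at -2.49 (SE 0.63) and AMACR at -0.60 (SE 0.18).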

How the data were processed

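RNA sequencing libraries of 3 control and 3 heat pools were analysed, grouped and numbered by their titles. The labels' protocols name poly(A) selection or removal of ribosomal RNA and do not say which was used. The submitters' processing notes name HISAT2 2.0.1 and build GRCg6a, the counter HTSeq 0.6.1, the trimmer cutadapt 1.9.1 and DESeq2 without a version. Their order and settings are not stated. The authors deposited 1 table with an estimated count per gene and library, of which 13.05% to 13.65% per library were not whole within 0.001, and with FPKM values, per the file headers. The tool behind the fractional counts and whether counting used strand are not given in the sources used here. Levels are the deposited FPKM, which are set across genes of different length.

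Estimated counts were rounded and tested with edgeR 4.0.16 (glmQLFit, glmQLFTest) in R 4.3.3, after filterByExpr (minimum count 10, minimum total 15) and TMM scaling, two-sided, with Benjamini-Hochberg adjustment over all 13060 tested genes and a threshold of 0.05. SE is the absolute log2 fold change over the square root of F. CPM uses TMM scaled library sizes, and overlap of groups was judged on it. DESeq2 1.42.0 and limma 3.58.1 were run beside it. Python 3.11.15 with pandas 2.3.3 and matplotlib 3.10.9 made tables and plots.

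All 42 members matched by identifier in a RefSeq gene table of another assembly (GRCg7b), used for older names and neighbours only. Members and lists were chosen with earlier results of these data known. Values per pool are given for members past the threshold, the 12 highest, the 8 with the smallest p and those whose groups did not overlap, and for others chosen after their values were seen. Of each pathway list up to 3 genes with the smallest p were named, besides a fixed set of regulators and donors; NR1I2 was not analysed here, and 1 further gene of the regulator list is not reported here and was left out of its counts. AHRR, TIPARP, ALAS1, RXRA, VDR, CEBPA and KEAP1, of the same lists, and the hepatocyte markers given, were named after their values were seen. Of the 8 marker lists (enterocytes, goblet and enteroendocrine cells, hepatocytes, exocrine pancreas, smooth muscle, fibroblasts, erythroid cells, leukocytes), 0 genes passed in edgeR. DESeq2 called 2 of 14 tested enterocyte and 1 of 6 tested hepatocyte markers higher, against 2.86% of all genes. It called 1 of 3 tested erythroid markers lower, against 2.38%.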

Additional observations from a re-analysis of the deposited data

How the results depend on the processing

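The count of P450 genes called higher was 1 with edgeR, 7 with DESeq2 and 0 with limma-trend on log2(FPKM + 1) or log2(FPKM + 0.1), and it was 0 to 1 when each pool was left out in turn. CYP2U1 had limma-trend adjusted p of 0.0571 and 0.0538 with these pseudocounts. No P450 gene was called lower in any of these fits. Over all genes, 3 were called higher with edgeR, 352 with DESeq2, 1 with limma-trend on log2(FPKM + 0.1) and 0 to 6 when a pool was left out, and 0 were called lower with edgeR, 293 with DESeq2 and 0 to 1 when a pool was left out. For pathway genes the count of 0 was 16 with DESeq2. Same-numbered pools correlated at 0.275, 0.089 and 0.026 in their deviations from the group means, and different-numbered pools at -0.261 to 0.203. With 3 pools per group the deviations depend on each other, so these values cannot tell whether the numbers in the titles pair the pools. With the replicate number as a block, edgeR called 8 genes higher, 12 lower, 1 P450 gene (CYP2U1) and 2 pathway genes. Changes near 0 turned sign without passing: CYP20A1 was at -0.025 and -0.024, CYP2D6 at -0.049 and -0.049 and CYP46A1 at -0.056 and -0.053 in limma-trend with a pseudocount of 0.1 and 1. CYP2C45 was at -0.47 and -0.33 there and at -0.34 under the replicate block, and CYP2J22 was at 0.026 once a gene length trend was removed. Leaving out 1 pool at a time, the log2 fold change ranged from -0.14 to 0.55 for CYP1B1, -0.025 to 0.31 for CYP2AC1, -1.34 to 0.49 for CYP2C45, -0.18 to 0.17 for CYP2D6, -0.36 to 0.17 for CYP2J22, -0.61 to 0.0025 for CYP2J23, -0.77 to 0.13 for CYP2W1 and -0.22 to 0.18 for CYP46A1. CYP2C23a (0.61 to 0.89), CYP2C23b (0.77 to 0.98), CYP3A4 (0.46 to 0.89), CYP4V2 (0.55 to 0.74), CYP7B1 (0.78 to 1.19) and CYP4F11 (-0.58 to -0.35) kept their sign there. The causes were not tested. The number of expressed members was 25 by the control mean, 25 by the heat mean, 23 with 1 FPKM in each control pool and 30 at a bound of 0.5 FPKM.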
